A study of Mus musculus with 3 samples.

Results

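Narrow peaks in short protein-coding genes numbered 487 of the 15769 peaks that were called for RNA precipitated with MTR4 (3.09%). They were chosen as peaks of exactly 20 nt whose midpoint lies in a RefSeq protein-coding gene of 5 kb or less and in no gene of rRNA, tRNA, snRNA, snoRNA or miRNA. Of the 15093 peaks of that width, 352 lay in such small RNA genes and were left out. The 487 peaks fell in 361 of 5034 short protein-coding genes. They come from LACE-seq, which fixes RNA to bound proteins with ultraviolet light, pulls one protein down and reads where reverse transcription of its RNA stops. The 3 samples were KIT-positive cells sorted from testes of mice at postnatal day 8, wild-type for Mtr4 (labelled Mtr4WT), irradiated with UV-C light at 400 mJ and precipitated with an antibody to MTR4. KIT marks differentiating spermatogonia, but also mast cells and some interstitial cells of the testis. The labels give no strain and do not say how many animals were pooled. The cells formed 1 group with no control precipitation, so no comparison between groups was made, and background from abundant RNA cannot be told apart from contacts of MTR4. All values come from 1 list of peaks, recorded under replicate 3, which gives position and strand sign but no score, so the depth behind a peak is unknown and no value has a replicate check. Intervals in brackets are 95% intervals (Wilson for shares, exact Poisson for densities) and cover counting error only. Positions are 1-based on mm10. The sources used here do not state whether the sign is that of the sequenced read or of the transcript. A sign opposite to the strand of a gene therefore does not show which strand the RNA came from.

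MTR4 is the RNA helicase that unwinds nuclear transcripts and feeds them to the exosome, the complex that degrades RNA from its 3′ end. It acts in adaptors that bring it to different RNAs, among them promoter upstream transcripts, enhancer RNAs, prematurely ended mRNAs and precursors of small nucleolar RNAs. Short protein-coding genes hold several families whose transcripts have few or no introns, such as histones, early response factors and olfactory receptors, next to compact and highly expressed genes such as those of ribosomal proteins and ferritin.

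The sequences shown here place single peaks against the start of their gene. They are the windows from 250 bases before to 50 after an annotated start, from RefSeq on GRCm38.p6, read on the strand of the gene, with the 20 nt of the peak in capitals. Of the 487 peaks, 20 lay wholly inside such a window of their own gene. The 6 windows printed belong to named genes and were taken in order of gene length.
Gm20594: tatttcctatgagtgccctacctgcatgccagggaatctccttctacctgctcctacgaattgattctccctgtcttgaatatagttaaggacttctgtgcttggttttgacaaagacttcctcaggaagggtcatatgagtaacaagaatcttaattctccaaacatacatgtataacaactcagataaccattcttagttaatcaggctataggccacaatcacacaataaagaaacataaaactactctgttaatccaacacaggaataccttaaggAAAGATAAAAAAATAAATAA
Cldn24: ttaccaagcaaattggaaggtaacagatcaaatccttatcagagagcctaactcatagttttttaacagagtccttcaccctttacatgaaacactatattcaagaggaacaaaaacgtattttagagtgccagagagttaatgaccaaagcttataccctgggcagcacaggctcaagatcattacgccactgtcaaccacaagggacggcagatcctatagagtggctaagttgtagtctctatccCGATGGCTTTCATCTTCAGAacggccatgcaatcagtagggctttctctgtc
Mrps16: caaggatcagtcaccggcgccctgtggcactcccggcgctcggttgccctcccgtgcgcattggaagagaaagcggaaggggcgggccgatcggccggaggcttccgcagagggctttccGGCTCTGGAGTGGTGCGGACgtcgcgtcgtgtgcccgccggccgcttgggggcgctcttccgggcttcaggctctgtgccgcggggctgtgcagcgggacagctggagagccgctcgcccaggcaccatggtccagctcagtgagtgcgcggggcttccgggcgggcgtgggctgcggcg
Tuba1b: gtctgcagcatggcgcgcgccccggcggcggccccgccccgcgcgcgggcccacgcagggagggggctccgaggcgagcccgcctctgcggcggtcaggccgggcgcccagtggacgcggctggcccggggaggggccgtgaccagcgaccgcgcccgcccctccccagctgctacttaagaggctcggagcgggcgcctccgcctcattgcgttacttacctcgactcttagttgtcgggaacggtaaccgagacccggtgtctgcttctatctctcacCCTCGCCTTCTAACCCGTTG
Psmb5: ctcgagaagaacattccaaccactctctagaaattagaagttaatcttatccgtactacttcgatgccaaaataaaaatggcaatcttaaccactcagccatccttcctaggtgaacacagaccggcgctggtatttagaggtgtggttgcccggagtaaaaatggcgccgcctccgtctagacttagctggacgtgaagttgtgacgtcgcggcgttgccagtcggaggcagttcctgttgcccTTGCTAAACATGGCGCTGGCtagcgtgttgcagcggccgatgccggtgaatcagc
H3f3b: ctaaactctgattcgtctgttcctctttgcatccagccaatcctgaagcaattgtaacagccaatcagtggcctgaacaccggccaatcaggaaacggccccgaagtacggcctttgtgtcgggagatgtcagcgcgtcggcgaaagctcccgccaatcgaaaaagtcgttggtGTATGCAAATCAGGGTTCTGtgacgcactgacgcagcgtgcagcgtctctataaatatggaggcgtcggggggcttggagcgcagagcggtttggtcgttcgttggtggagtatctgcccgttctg
Gm20594 is a predicted gene on chromosome 6. Its window (chr6:79817781-79818080, plus strand) ends in the peak, which begins at base 31 of the gene, has the minus sign and is almost all A and T, with a GC content of 5%, against 36.3% over the window. Tuba1b encodes an alpha-tubulin. Its peak also began at base 31 (window chr15:98934341-98934640, minus strand) and had the plus sign. In both genes the sign was thus the reverse of the strand of the gene. The peaks of Cldn24, a claudin gene (chr8:47821893-47822192, plus strand), and Psmb5, a proteasome subunit gene (chr14:54617946-54618245, minus strand), straddled the start and had the sign of the strand. So did the peaks in Mrps16, a mitochondrial ribosomal protein gene (chr14:20393441-20393740, minus strand), and H3f3b, a replacement histone gene (chr11:116024455-116024754, minus strand), which began at bases -130 and -76 of one annotated start but lay inside the gene as RefSeq bounds it. Over all 20 peaks inside a window, 12 had the sign opposite to the strand. Their GC content ran from 5% to 85% with a median of 62.5%, against a median of 59% for the windows around them. The letters TATAAA, on either strand, stood in 13.6% of all 32851 windows and CCAAT in 37.4%; of the 6 windows printed, that of H3f3b held both, and those of Cldn24 and Mrps16 held CCAAT alone.

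Density of narrow peaks was highest in genes of 2 to 3 kb and fell off on both sides. Genes of up to 1 kb had 26.3 peaks per Mb of gene (18.3 to 36.6), those of 1 to 2 kb 41.4 (31.6 to 53.3), those of 2 to 3 kb 57.8 (47.8 to 69.2) and those of 3 to 5 kb 42.3 (37.4 to 47.6). Beyond the limit, genes of 5 to 10 kb had 24.6 per Mb and genes over 300 kb 3.98. All short genes together had 43.1 per Mb (39.3 to 47.1), longer protein-coding genes 7.61 (7.44 to 7.78) and the whole of the chromosomes 5.45. Just inside the limit, genes of 4.5 to 5 kb had 36.1 per Mb (27.7 to 46.2), and just outside it, genes of 5 to 5.5 kb had 30.1 (22.4 to 39.6), with intervals that overlap. A short gene held such a peak in 7.17% of cases and a protein-coding gene of any length in 25%. The median length was 3.09 kb for short genes that held one and 1.95 kb for short genes in all. Of the peaks, 72 also lay in another gene, 50 of them in a longer protein-coding gene and 23 in a long noncoding one, so their transcript of origin is uncertain.

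**Figure D1:**
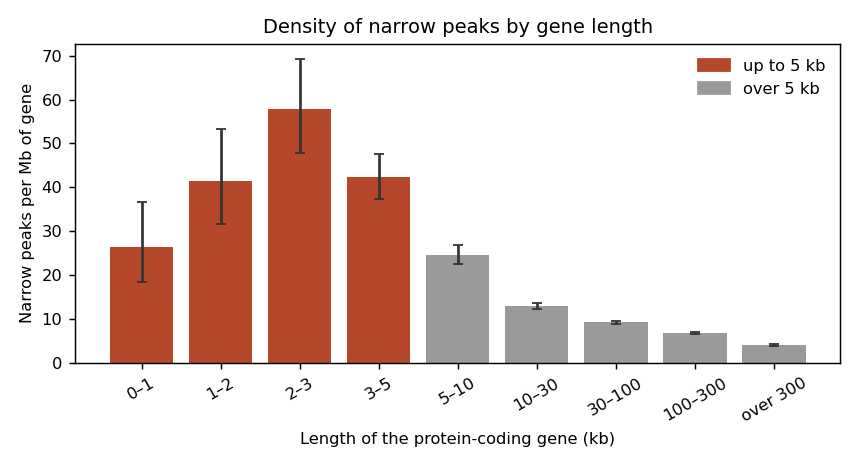
Narrow peaks outside small RNA genes per Mb of gene (vertical axis) for protein-coding genes in 9 classes of length in kb (horizontal axis). Error bars are exact 95% Poisson intervals. Density was 57.8 per Mb at 2 to 3 kb and 3.98 per Mb over 300 kb.

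Most short genes with a peak had 1, while a few held many. Of the 361 genes, 291 held 1 peak, 45 held 2, 16 held 3 and 9 held 4 or more. Egr1, an immediate early transcription factor gene (chromosome 18, 34861207 to 34864956), had 10, all minus. Ubb, which encodes a chain of ubiquitin units (chromosome 11, 62551171 to 62553213), and Fos, which encodes a subunit of AP-1 (chromosome 12, 85473890 to 85477274), had 7 each, all minus. Actb, the cytoplasmic beta-actin gene (chromosome 5, 142903115 to 142907976), had 6, all plus.

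A test over all 34614 protein-coding and long noncoding genes compared the peaks of each gene with those expected from the density of its chromosome or, where higher, of the 500 kb on either side. It called 58 genes (0.168%), of which 28 were short protein-coding genes, at a 1-sided exact Poisson p adjusted by Benjamini-Hochberg under 0.05. A peak in the gene is what chose these genes, so the count of 28 is a description of where peaks stack. The 28 held 110 of the peaks, and their folds over expectation ran from 54.2 to 1674. The expectation did not allow for the density of short genes as a class, 43.1 per Mb against 5.45 over the chromosomes. Part of each fold may therefore be shared by short genes in general, and an excess over other short genes was not tested. Egr1 stood at 242-fold (adjusted exact Poisson p = 3.3e-17), Fos at 345-fold (1.9e-12), Ubb at 190-fold (8.6e-11) and Actb at 88.1-fold (5.0e-07). The highest fold belonged to Gm20594, where 3 peaks lay in 334 nt. Among the others were Jun with 4 peaks, the mRNA decay factor gene Zfp36 with 4, its relative Zfp36l2 with 4, the antiproliferative gene Btg2 with 3, the elongation factor gene Eef1a1 with 3 and both ferritin chain genes, Fth1 and Ftl1, with 3 each. Ccdc185 and Ubqln2, which the rule for naming did not reach, passed with 2 peaks each. The single-exon gene Bhlhe22, also with 2, was the short gene nearest to the threshold outside it (adjusted exact Poisson p = 0.057). In 19 of the 28 genes all peaks shared 1 sign. A strand was given for 22 of them, and in 14 of these every peak had the sign opposite to the strand, while in 1, Ascl5, every peak had the sign of the strand. When like-signed neighbours within 100 nt were joined, 9 of the 28 no longer passed: Jun, H4c1, Zfp36, Btg2, Pnrc1, H4c9, Fth1, Jund and H4c3, with adjusted exact Poisson p from 0.12 for Btg2 to 1 for Fth1.

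**Figure D2:**
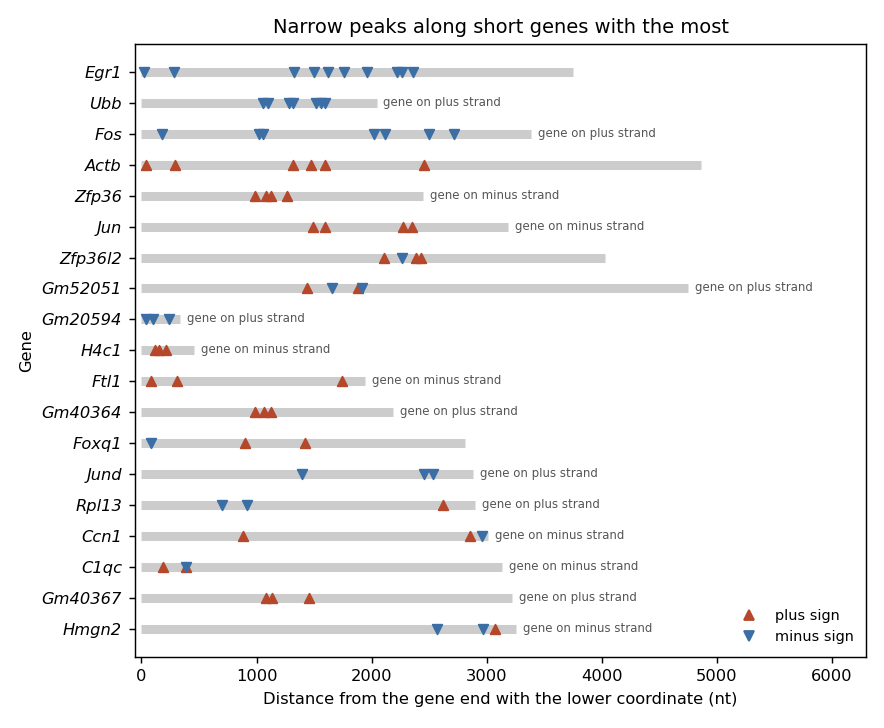
Narrow peaks (triangles, up for the plus sign and down for the minus sign) along 19 of the 20 short genes with the most, each drawn to scale as a bar from its lower coordinate (horizontal axis in nt). The strand of the gene is written beside it where the RefSeq windows give one. Peaks of Egr1, Ubb, Fos and Actb share 1 sign within each gene, while those of Gm52051 and Hmgn2 are mixed.

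The share of genes whose peaks all had 1 sign was set against that in longer genes, and the difference missed the threshold after adjustment. Among genes with exactly 2 narrow peaks, both had 1 sign in 33 of 45 short genes (73.3%, 59.0 to 84.0) and in 615 of 1089 longer ones (56.5%, 53.5 to 59.4). The odds ratio was 2.12 (2-sided Fisher's exact test over genes, p = 0.031, adjusted p = 0.061 over the 2 sign tests). The 2 peaks lay a median of 700 nt apart in short genes and 19740 nt apart in longer ones. With longer genes kept only where their 2 peaks lay within 5 kb, an alternative added after the data were seen, 154 of 282 shared a sign (odds ratio 2.29, adjusted p = 0.045 by Fisher's exact test). With 2 or more peaks, it was 50 of 70 short genes (71.4%) and 826 of 1715 longer ones (48.2%), with an odds ratio of 2.69 (adjusted Fisher's exact p = 0.00026); longer genes there held more peaks over a median of 35680 nt. In 8 short genes with 3 or more peaks the signs were mixed. These were C1qc, Ccn1, Foxa2, Foxq1, Gm52051, Hmgn2, Rpl13 and Zfp36l2. Gm52051 had 2 of each sign, all in the stretch where it overlaps the longer gene Tnpo1.

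The sign could be set against the strand of the gene for 4080 of the 5034 short genes, and for 288 of the 361 with a peak. In genes with 1 narrow peak it was opposite in 118 of 233 short genes (50.6%, 44.3 to 57.0) and in 1327 of 2675 longer ones (49.6%, 47.7 to 51.5). The odds ratio was 1.04 and the 2-sided Fisher's exact test over genes gave an adjusted p of 0.78, so a difference was not detected at these numbers. Genes on the plus and minus strands were pooled here. Minus signs outnumbered plus signs in short and in longer genes, and a minus sign is opposite only in a gene on the plus strand. A share near 50% may therefore average unlike shares on the plus and minus strands, which were not tested apart. Where peaks stacked, the share was higher. In short genes with 2 peaks, 42 of 70 peaks were opposite (60%), and in short genes with 3 or more, 57 of 71 (80.3%). In longer genes these shares were 53.0% and 54.3%. Peaks of a gene are not independent, and these shares were not tested. What the sign stands for is not stated, so an opposite sign is not read here as RNA from the other strand. Of the short genes with 2 or more peaks of 1 sign and a known strand, all peaks were opposite in 28 of 39 (71.8%, 56.2 to 83.5). In the remaining 11 they had the sign of the strand: Ascl5, Cited1, Fem1al, Gm21083, Gm36327, Gm40364, Gm40367, Gm52481, Ier5, Nkx6-2 and Srsf2. By gene length the opposite share was 73.5% of 34 peaks up to 1 kb, 64.7% of 51 from 1 to 2 kb, 52.2% of 90 from 2 to 3 kb and 56.3% of 199 from 3 to 5 kb. Over all 487 peaks 61.4% had the minus sign (57.0 to 65.6), against 65.9% in longer genes (64.9 to 67.0).

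**Figure D3:**
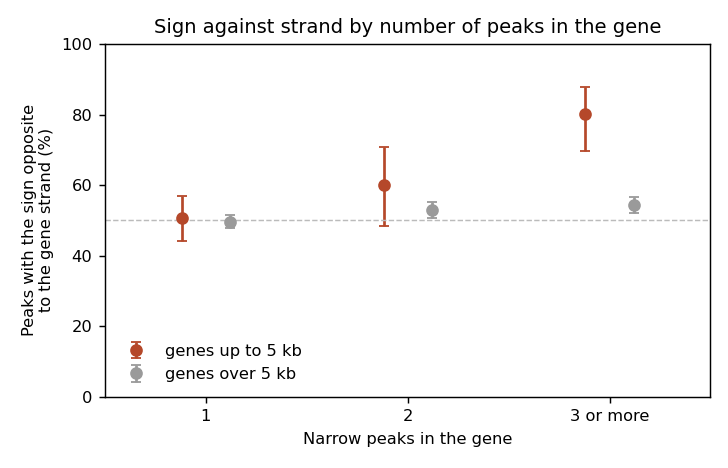
Share of narrow peaks whose sign is opposite to the strand of their gene (vertical axis, percent) by the number of narrow peaks in the gene (horizontal axis), for genes up to 5 kb and over 5 kb. Bars are 95% Wilson intervals that treat peaks as separate, and the dashed line marks 50%. Short genes with 3 or more peaks stand at 80.3%, short genes with 1 peak at 50.6%.

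Immediate early factors, induced within minutes of a stimulus, had the highest share of genes with a peak among the lists of 10 or more short members. Of the 15 short members listed, 10 held a peak (66.7%, 41.7 to 84.8), with 32 peaks, against 7.17% of all short genes. Of the 20 peaks with a known strand 17 were opposite to it, and all 6 members with 2 or more peaks had 1 sign. Fos had peaks 180, 1020, 1060, 2020, 2120, 2500 and 2720 nt from its start. These run over most of the 3385 nt of the gene. Jun, the intronless partner of Fos (chromosome 4, 95049036 to 95052222), had peaks 832, 912, 1592 and 1692 nt from its start. Its relative Jund had 3, at 1391, 2451 and 2531 nt. No strand was given for Egr1, whose peaks lay 23 to 2363 nt from its lower end. The early response and feedback list, of genes that shut signalling or mRNA stability down again, held a peak in 5 of 24 short members (20.8%), with 9 of 10 peaks opposite. Zfp36, which encodes a protein that triggers decay of AU-rich mRNAs (chromosome 7, 28376784 to 28379228), had all 4 peaks within 280 nt, from 1178 to 1458 nt of its start. Ccn1, a matricellular protein gene, had 1 peak of the strand's own sign, 55 nt from its start, and 2 opposite ones at 155 and 2135 nt.

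Replication-dependent histone genes lack introns, and their mRNAs end in a stem-loop in place of a poly(A) tail. These genes held a peak in 18 of 61 short members (29.5%, 19.6 to 41.9), against 7.17% of all short genes. Of 22 peaks with a known strand, 20 were opposite to it (90.9%, 72.2 to 97.5). Genes of H4 led, with 6 of 13 holding 11 peaks, while 4 of 12 H3 genes, 3 of 17 H2A genes, 3 of 13 H2B genes and 2 of 6 H1 genes held 4, 3, 3 and 2 peaks. H4c1 (chromosome 13, 23760795 to 23761249) had 3 plus peaks 239, 299 and 339 nt from its start, on the minus strand. H4c3 had 2, at 168 and 228 nt. H4c6 had a plus peak at 238 nt and a minus one, the only H4 peak with the strand's sign, at 138 nt. The H4 peaks all lay between 138 and 339 nt of the start. Of the 18 genes, 15 lie on chromosome 13. Coding parts of H4 genes are near-identical, so reads cannot be tied to one copy with certainty, although the start windows of the 6 H4 genes were alike in only 41% to 51.3% of bases (edit distance). None of the histone peaks lay within 1 kb of a small RNA gene.

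In Ubb the peaks stood in close groups. They lay 1059, 1099, 1279, 1319, 1519, 1559 and 1599 nt from its start, and 6 of the 7 had another peak 220 or 240 nt away. The gene encodes ubiquitin units joined head to tail, so nearly the same stretch recurs along it, and peak positions have a grain of 20 nt. Of the 21 pairs of Ubb peaks, 4 lay 220 or 240 nt apart, against 2 at 100 to 200 nt and 4 at 260 to 400 nt. The commonest single distance was 40 nt, also with 4 pairs, and a regular step was not tested. Which unit a read came from is uncertain. All 7 peaks were opposite to the strand of the gene.

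In translation and cytoskeleton genes most signs were again opposite to the strand. Of 72 short genes of cytoplasmic ribosomal proteins, 17 held a peak (23.6%, 15.3 to 34.6), against 7.17% of all short genes. Of their peaks with a known strand, 12 of 14 were opposite to it. Within 1 kb of a small RNA gene lay 14 of their 21 peaks, and the part of those genes in the counts was not tested. Rpl13 had 2 minus peaks, 700 and 920 nt from its start, and a plus one at 2620 nt, on the plus strand. Rpsa, the laminin receptor protein of the small subunit, and Rpl17 had 2 minus peaks each. None of the family passed the test of excess. Eef1a1, which brings tRNA to the ribosome, had 3 plus peaks 74, 1154 and 1374 nt from its start, on the minus strand. Actg1 and Tuba1b had 2 opposite peaks each, 65 and 1345 nt and 40 and 2260 nt from the start. Ferritin stores iron in a shell of heavy and light chains. The 3 peaks of Fth1, the heavy chain gene (chromosome 19, 9980600 to 9985111), stood close together at 2150, 2210 and 2250 nt, and those of Ftl1, the light chain gene, at 196, 1636 and 1856 nt. All 6 were opposite, in a list added after the data were seen. Chaperone genes Hspe1 and Dnajb1 held 2 and 1 peaks, all opposite, of 9 short members.

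Developmental transcription factor genes were also among the short genes with a peak, and their signs were mixed. Homeobox genes outside the HOX clusters, a list added after the data were seen, held a peak in 13 of 37 short members (35.1%, 21.8 to 51.2), and basic helix-loop-helix genes, also added, in 16 of 45 (35.6%, 23.2 to 50.2). SOX factors held one in 4 of 10, forkhead factors in 6 of 22 and HOX factors in 5 of 24. The share was 7.17% over all short genes, and 11.0% and 11.5% over those of 2 to 3 kb and 3 to 5 kb. The interval of the HOX list began at 9.24%. In the homeobox list 2 of 10 peaks and in the helix-loop-helix list 3 of 11 were opposite to the strand, against 4 of 6 in forkhead, 2 of 4 in SOX and 1 of 2 in HOX genes. Nkx6-2, a factor of the neural tube, had 2 minus peaks on the minus strand, 1047 and 1547 nt from its start. Foxa2, a factor of endoderm, had plus and minus peaks next to each other at 2139 and 2119 nt and a plus one at 699 nt, on the minus strand. Foxq1, a forkhead gene with a single exon, had 1 minus and 2 plus peaks. Over these 5 lists, 12 of 33 peaks were opposite (36.4%, 22.2 to 53.4), and 7 of 12 over the SOX, forkhead and HOX lists alone. A further 8 lists held replication-dependent histone, cytoplasmic ribosomal protein, translation factor, actin and tubulin, ferritin, ubiquitin and early response genes. Over them 79 of 88 were opposite (89.8%, 81.7 to 94.5), and over all other short genes 126 of 253 (49.8%, 43.7 to 55.9). Genes with 1 peak alone, in the same order, had 8 of 22, 22 of 26 and 88 of 185 opposite. They are part of the counts above and no separate check. These groups of lists were drawn up after the signs were seen, so the difference between them was not tested. In lists outside these groups, 3 of 6 mitochondrial ribosomal protein peaks, 2 of 4 splicing factor peaks and 1 of 2 respiratory chain peaks were opposite. The single peaks in replacement histone and proteasome genes were not, while all 3 chaperone peaks were.

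**Figure D4:**
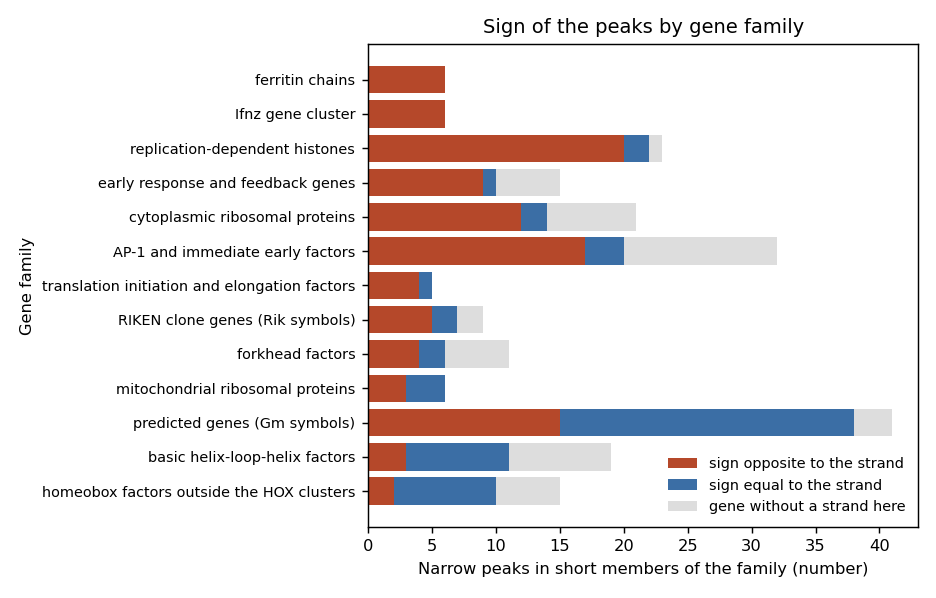
Number of narrow peaks (horizontal axis) in short members of gene families with 5 or more peaks of known strand. Bars are split by whether the sign is opposite to the strand of the gene, equal to it, or the gene has no strand here. The single-exon, Zfp and ubiquitin lists also reach 5 but are not drawn. Opposite signs make up 20 of 22 replication-dependent histone peaks and 2 of 10 in homeobox genes outside the HOX clusters.

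Genes known to have a single exon, taken from textbook knowledge since exons were not given, overlapped these families. The list of such genes had 73 short members, of which 24 held a peak (32.9%, 23.2 to 44.3), with 35 peaks. Jun, Jund, Junb, Foxq1, Adra2c, Ier5 and Bhlhe22 had 2 or more, and 5 of these 7 had 1 sign. Adra2c, an adrenergic receptor gene, had 1 peak of each sign. Together with the histones, 134 short genes were known to lack introns, and 42 held a peak (31.3%, 24.1 to 39.6), against 319 of the 4900 other short genes (6.51%). The 4900 include the olfactory receptors, whose coding sequence lies in a single exon. Counted with the intronless genes, they bring that share to 46 of 1169 (3.93%), against 315 of 3865 remaining short genes (8.15%), so the direction depends on where these receptors are placed. The 3865 are not a set known to have introns, since exons were not given. They still include the vomeronasal, taste receptor and keratin-associated genes. In the 134 genes, without the olfactory receptors, 37 of the 47 peaks with a known strand were opposite to it. The immediate early, forkhead and helix-loop-helix lists share members with this one, and their part in the share was not tested. Some large receptor and structural protein families had few peaks. Their gene length was not matched. Of all protein-coding genes, 1.71% of those up to 1 kb and 7.17% of those up to 5 kb held a peak. Olfactory receptor genes held one in 4 of 1035 short members (0.386%, 0.150 to 0.989), all 4 with the sign of the strand. All 4 were minus peaks in genes on the minus strand, and 61.4% of the peaks in short genes had the minus sign. Vomeronasal and taste receptor genes held one in 1 of 264, and keratin-associated and cornified envelope genes in 0 of 88 (up to 4.18%). Without the olfactory, vomeronasal and taste receptors, 356 of 3735 short genes held a peak (9.53%).

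Start windows of short genes with a peak were richer in G and C than those of short genes without. Their median GC content was 58%, against 47% without, and 52% without when the receptor families were left out. The ratio of observed to expected CpG had a median of 0.69, against 0.21, and 0.30 with the receptors left out. Windows of longer genes with a narrow peak had 62% and a ratio of 0.74. A window was given for 79.8% of the short genes with a peak. Median GC content was 58.7% for genes with 2 or more peaks and 57.7% for genes with 1.

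Predicted genes brought in 2 runs of near-identical copies. The Ifnz cluster, a list added after its peaks were seen, encodes interferon zeta and its copies on chromosome 4. Of its 15 short members, 6 held 1 minus peak each, all on the plus strand. In 5 of them the peak lay 313 to 319 nt from the start, and in Gm13275 408 nt from it. Their start windows were alike in a median of 99.7% of bases, with the least similar pair at 45.3%. On chromosome 6, Gm40367 and Gm40364 held 3 plus peaks each and Gm36327, outside the naming rule, 2, all with the sign of their plus strand. Their 3 start windows were identical. Peaks there recurred in 8 groups 4260 to 4380 nt apart, 21 peaks in all and every one plus, and the first group lay in Rn4.5s, a gene that the table lists as rRNA and that encodes 4.5S RNA. Peaks in annotated small RNA genes were left out by the rule, but these 8 peaks of 3 predicted genes keep step with that gene. Over all short genes with a Gm symbol, 28 of 626 held a peak (4.47%), and 15 of 38 peaks were opposite to the strand.

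Peaks thinned out from the start of short genes to their end. Of the 374 placements in genes with a known strand, 240 lay nearer to the start than to the end (64.2%) and 81 within 250 nt of the start, against 34 within 250 nt of the end. With each gene cut into 10 equal parts, the first part held 76 peaks and the last 20. Peaks of the sign opposite to the strand lay nearer to the start in 132 of 217 cases (60.8%, 54.2 to 67.1), and peaks of the same sign in 108 of 157 (68.8%, 61.2 to 75.5). Opposite signs outnumbered equal ones in 9 of the 10 parts, all but the fourth, where there were 15 and 16.

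**Figure D5:**
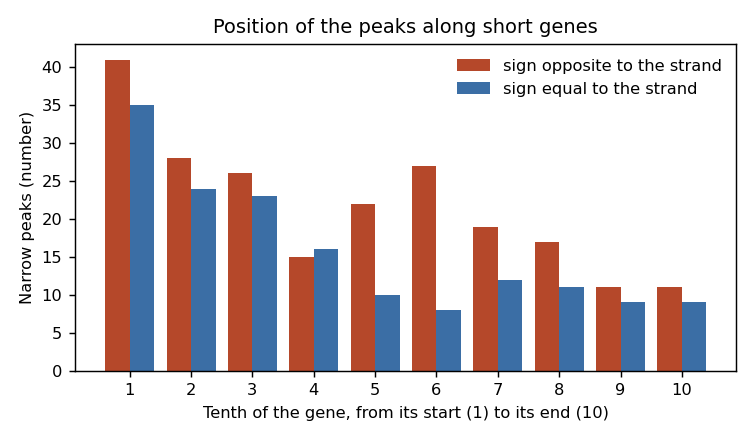
Number of narrow peaks (vertical axis) in each of 10 equal parts of short genes with a known strand (horizontal axis, from the start to the end of the gene), for peaks of the sign opposite to the strand and equal to it. The first part holds 41 opposite and 35 equal peaks, the last 11 and 9.

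Of 24 short genes in the lists of testis cell types, 3 held a peak (12.5%, 4.34 to 31.0), against 7.17% of all short genes. None of the 13 short genes in the germ cell list held one (interval up to 22.8%), nor did the 6 short mitotic regulators. Of the Sertoli markers 1 of 4 did, with 1 peak in the inhibin gene Inha. Of the Leydig and interstitial markers Insl3, the only short one, held 1. Of the immune and endothelial markers 1 of 6 did. This was C1qc, a complement gene of macrophages (chromosome 4, 136889801 to 136892936), with 2 plus peaks and 1 minus peak. One plus peak and the minus peak are the same 20 nt, listed once under each sign. The excess was 59.8-fold (adjusted exact Poisson p = 0.017), and with that position counted once, an alternative added after the data were seen, it fell short of the threshold at 39.9-fold (adjusted exact Poisson p = 0.30). Which cells these peaks came from was not tested.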

How the data were processed

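RNA that precipitated with MTR4 was mapped by LACE-seq in 3 samples of 1 group. Per the submitters' processing notes, cutadapt 1.15, Bowtie 1.0.0 and build mm10 were used. The peak caller, removal of duplicates and pooling of replicates are not given in the sources used here; the name under which the list was deposited hints at merging, removal of duplicates and Piranha. The authors' deposited list has no header and no unit of measurement other than positions: chromosome, start, end and sign, all coordinates being multiples of 20 nt, so depth and precision per sample are unknown. No list was analysed here for replicates 1 and 2. Peaks were joined by midpoint to RefSeq genes of GRCm38.p6 (21887 protein-coding genes); strands came from the RefSeq start windows, and exons were not given.

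Excess was tested per gene with a 1-sided exact Poisson test, adjusted by Benjamini-Hochberg over 34614 genes, and signs with 2-sided Fisher's exact tests over genes, adjusted over 2 tests, at 0.05. The tests were checked on simulated data. Python 3.11.15 with scipy 1.17.1 was used. Members and the 35 gene lists were chosen with earlier results of these data known, and 4 lists were added later. Genes named are the 20 with the most peaks (ties by shorter gene) and the 3 leading members of each list; 1 of the 20 is not reported here, and others are named as parts of small sets and were picked after their values were seen. Of all 35 lists, those of keratins (0 of 12 short members with a peak), Rhox genes (0 of 20), respiratory chain genes (2 of 34), mitochondrial ribosomal proteins (6 of 25), proteasome (1 of 11), claudins and connexins (2 of 22), splicing factors (2 of 10), high mobility group proteins (1 of 5), Id genes (1 of 4), replacement histones (1 of 27), chemokines and interleukins (3 of 54), Zfp genes (4 of 20) and Rik symbols (8 of 125) are given here only, and no serpin gene is short. Alternatives changed the gene length limit, peak width, small RNA genes, joining, merging and background density.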

Additional observations from a re-analysis of the deposited data

How the results depend on the processing

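The number of peaks stayed between 452 and 502 with every width allowed, small RNA genes kept, peaks within 1 kb of them left out, any overlap or nearby peaks merged. It was 213 with genes of up to 3 kb and 1000 with genes of up to 10 kb, which follows from the limit itself. Short genes with an excess numbered 50 against the chromosome density alone, in place of 28, with all 28 among them, and 20 to 33 under the other alternatives, 20 being with nearby peaks merged, when 19 of the 28 remained. With positions listed under both signs counted once, added after the data were seen, 27 of the 28 remained, all but C1qc. The odds ratio of sign sharing, 2.12 (adjusted Fisher's exact p = 0.061), passed with 2 or more peaks (2.69, adjusted p = 0.00026), with nearby peaks merged (2.23, adjusted p = 0.043) and, an alternative added after the data were seen, with longer genes kept only where their 2 peaks lay within 5 kb (2.29, adjusted p = 0.045). It did not pass in the 5 other settings (1.25 to 3.56). That of the sign against the strand, 1.04, turned to 0.98 when peaks up to 1 kb from small RNA genes were dropped and also to 0.98 with genes of up to 3 kb, and passed under no alternative. No paired analysis was possible because there was 1 group and 1 list, and for the same reason no replicate could be left out. The list has no scores, so no stricter peak threshold could be tried, and the depth behind each peak stays unknown.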
